A study of Mus musculus with 6 samples.

Results

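The 34 genes described here make cholesterol and fatty acids, and they were measured in pancreatic tumour samples of mice with and without Msi1. They were chosen by name, with no measured value in the rule: 18 belong to a sterol arm and 16 to a fatty acid arm, out of 18193 genes that the array annotation names. All 34 were measured, each by the probe set of highest mean among those annotated to it alone. The labels describe C57BL/6 mice of 11 weeks, and all 6 samples share a tumour genotype that includes p53f/f and ptf1a-Cre, in which Cre is named for Ptf1a, a gene of pancreatic progenitor and acinar cells. The 3 samples called wild-type carry no other stated change and the 3 called Msi1-null are Msi1 -/-, so the wild-type samples are tumours too. The labels do not say how the null allele was made or whether cells were sorted. Msi1 encodes Musashi 1, an RNA-binding protein that regulates the translation of its target mRNAs. Each sample was 1 Affymetrix array, and the labels do not say whether samples were separate animals, so p-values measure only the spread between these samples.

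Cells make cholesterol from acetyl-CoA through mevalonate and squalene, and they make fatty acids from the same precursor. Both routes are under transcription factors of the SREBP family, held in the endoplasmic reticulum by Insig proteins while sterols are plentiful and released when sterols fall. SREBP-2 acts mostly on sterol genes and SREBP-1 mostly on fatty acid genes, together with the factors NF-Y and Sp1. LXR receptors, which sense oxidised sterols, switch on genes of cholesterol export and also Srebf1. Tumour cells are known to use both pathways for membranes, and the mevalonate pathway for prenylation of proteins.

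Promoter sequence is shown here because the sterol genes are read as a group below and their promoters share letters that the choice of genes did not use. RefSeq promoters of the mouse assembly GRCm38.p6, from 250 bases before to 50 after the start, were found for 28 of the 34 genes and not used for the other 6. The letters searched on both strands were TCACNCCAC and TCACNCGAC for the sterol regulatory element that SREBP binds, CCAAT for NF-Y, GGGCGG for Sp1 and CACGTG for an E-box, and matches of different motifs were counted separately. Hmgcs1, the synthase that opens the mevalonate pathway, was the only one of the 28 with TCACNCCAC, beginning 137 bases before its start. Its 250 upstream bases (chr13:119690101-119690350, plus strand) follow, with that element and the NF-Y boxes, CCAAT or its reverse ATTGG, in capitals.
Hmgcs1: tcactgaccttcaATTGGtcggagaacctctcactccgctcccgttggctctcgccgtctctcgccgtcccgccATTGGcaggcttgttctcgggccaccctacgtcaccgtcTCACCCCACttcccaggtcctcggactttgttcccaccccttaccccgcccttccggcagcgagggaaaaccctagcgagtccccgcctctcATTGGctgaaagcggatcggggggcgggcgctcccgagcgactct

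The NF-Y box was the shared feature. It was present in 15 of the 15 sterol arm genes with a promoter in the table and in 10 of 13 fatty acid arm genes, against 41.8% of 8860 genes that gave a signal above background on every array and 41.1% of all 27025 genes in the table. GGGCGG was present in 14 of 15 sterol and 7 of 13 fatty acid genes, against 69.1% of the genes above background. CACGTG was present in 4 of 15 and 1 of 13, against 11.8%. TCACNCCAC was present in 1 of 15 sterol genes and 0 of 13 fatty acid genes, against 1.35%, and TCACNCGAC in 0 of 15 and 0 of 13, against 0.677%. These shares carry no test, and a missing match says only that those exact letters are not in this window. The NF-Y box nearest the start, in capitals, is printed for 4 sterol genes whose values are given in full below, chosen after the motifs had been counted: the isomerase Idi1 (chr13:8885562-8885605, plus strand), the demethylase Cyp51 (chr5:4104698-4104756, minus strand), the isomerase Ebp (chrX:8193533-8193597, minus strand) and the sterol sensor partner Insig1 (chr5:28071166-28071230, plus strand).
Idi1: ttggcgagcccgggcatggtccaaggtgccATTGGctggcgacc
Cyp51: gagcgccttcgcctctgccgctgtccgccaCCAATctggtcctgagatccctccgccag
Ebp: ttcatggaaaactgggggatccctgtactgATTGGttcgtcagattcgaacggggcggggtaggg
Insig1: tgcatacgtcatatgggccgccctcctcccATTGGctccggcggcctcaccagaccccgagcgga

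The arrays were alike in overall signal, with median intensities between 159.2 and 164.3. The epithelial genes Krt8, Krt18, Krt19 and Epcam were above background on all 6 arrays, as were all 12 markers listed for tumour epithelium. Markers of other cells were present as well: 8 of 9 macrophage markers and 10 of 10 fibroblast markers lay above background on every array. In such samples fewer cells of a type and less RNA per cell cannot be told apart. Wild-type replicate 3 stood apart in sex-linked transcripts, with Xist at 6226 against 131 to 387 on the other arrays and the Y-linked Eif2s3y at 88.2 against 716 to 944. Array background was set at the 95th percentile of the signal of 82 olfactory, vomeronasal and taste receptor probe sets, and lay between 162 and 190. The targeted gene itself does not check the labels: the 3 Msi1 probe sets read 115 to 257 in wild-type and 118 to 168.5 in Msi1-null arrays, 1 of 9 values above background in each group, and their place relative to the deleted part is not known here.

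Of the 34 genes, 0 differed between the genotypes at an adjusted p below 0.05 (limma, Benjamini-Hochberg over 45037 probe sets), and every member had an adjusted p of 0.9997. The same held across the whole array, where 0.0% of probe sets were called. At an unadjusted p under 0.05 there was 1 member, Elovl6, of 34, against 3.45% of all named genes, and 1355 of 45037 probe sets (3.01%). The 3 Msi1-null values lay wholly above or below the 3 wild-type values for 3 members, Ebp, Elovl6 and Acaca, against 8.28% of all named genes, so the members' share was near that of the array. The difference was larger than the pooled SD between replicates for 4 of 18 sterol genes and 3 of 16 fatty acid genes, against 4554 of 18193 named genes.

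The sterol arm had a positive median difference and the fatty acid arm a median near 0. The mean level of the sterol arm differed by 0.122 between the genotypes, with an SD between replicates of 0.192. For the fatty acid arm these were 0.012 and 0.149. The median log2 difference, Msi1-null minus wild-type on the log2(intensity + 1) scale, was 0.12 over the sterol arm, with 11 of 18 genes higher, and -0.01 over the fatty acid arm, with 7 of 16 higher. Over all named genes the median was 0.00 and 50.2% were higher. Taken per array as a difference of arm means, the gap between the arms differed by 0.11 between the genotypes, with an SD between replicates of 0.192. These SDs describe single arrays and are not the error of a difference between group means. The gap between the 2 medians was 0.13. It rested on wild-type replicate 1: without that array the sterol median was -0.02, the fatty acid median 0.02 and the gap -0.04.

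**Figure D1:**
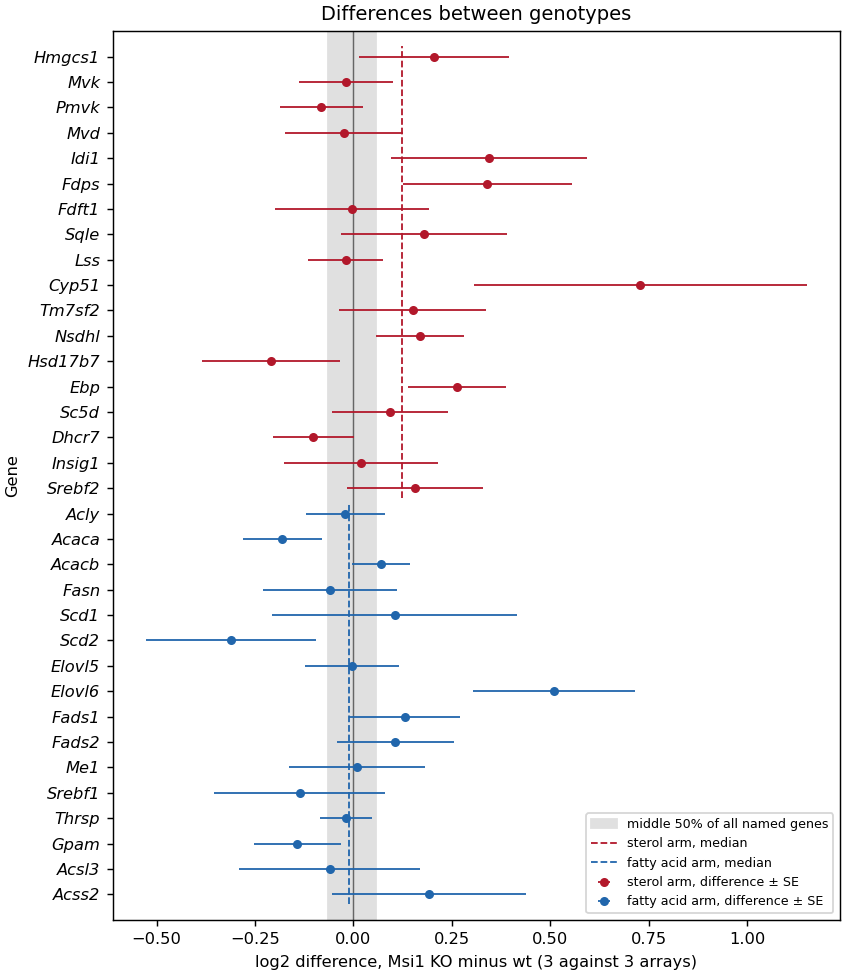
Log2 difference (Msi1-null minus wild-type, x axis) of each of the 34 genes (y axis), with limma's moderated SE as bars, the median of each arm as a dashed line and the middle 50% of all named genes as a grey band. Cyp51 (0.73) and Elovl6 (0.51) lie farthest to the right and Scd2 (-0.31) farthest to the left, and 0 members passed the threshold.

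Wild-type replicate 1 was the array that set the sterol genes apart. It held the lowest of the 6 values for 13 of 18 sterol genes and for 3 of 16 fatty acid genes, against 17.9% of all named genes. The mean level of the sterol arm, each gene centred on its own mean, was -0.33 in that array, -0.01 and 0.16 in wild-type replicates 2 and 3, and -0.06, 0.11 and 0.13 in Msi1-null replicates 1, 2 and 3. The other 5 arrays lay between -0.06 and 0.16, and the groups overlapped. This reading of the lowest array was made after the values were seen.

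**Figure D2:**
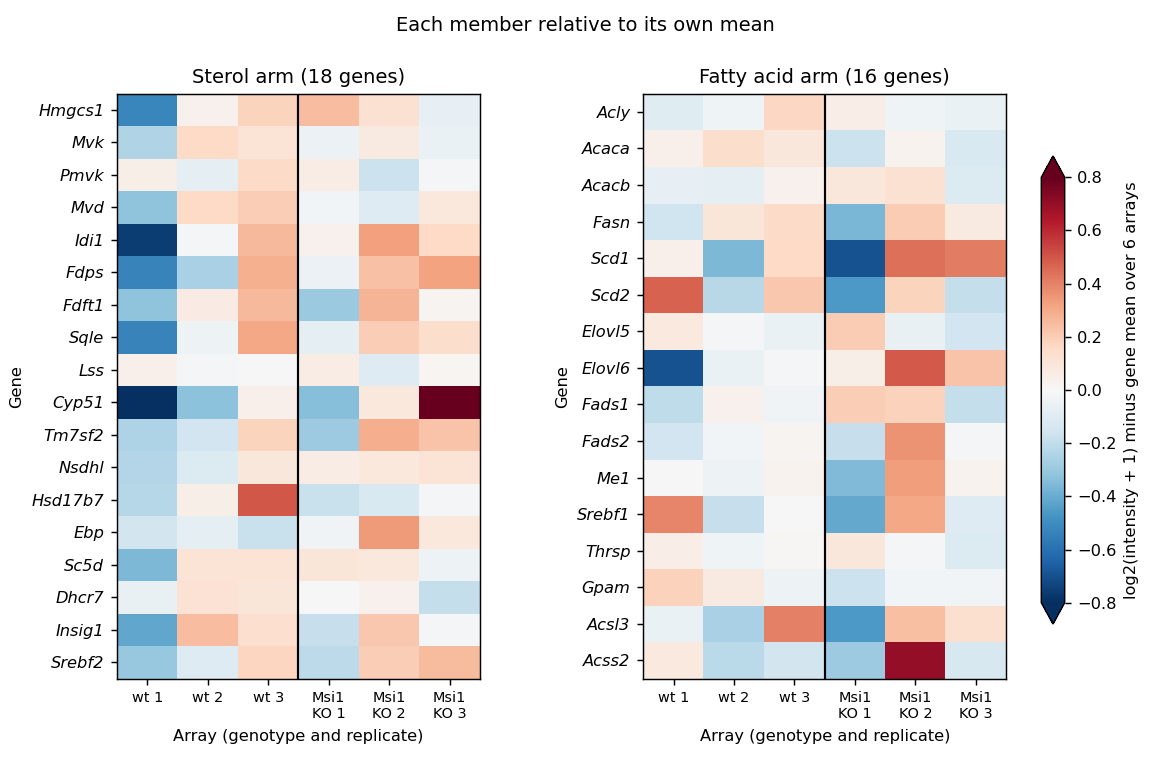
Each cell is 1 gene (y axis) on 1 array (x axis), as log2(intensity + 1) minus the gene's mean over the 6 arrays, with wild-type (wt) arrays left of the black line and Msi1-null (Msi1 KO) arrays right of it; blue is below and red above the mean, and colours end at 0.8. The wild-type 1 column is blue for most sterol genes, where it is the lowest array for 13 of 18, while the Msi1-null 1 column is the lowest for 10 of 16 fatty acid genes.

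Enzymes at both ends of the mevalonate pathway were lowest in that array. Hmgcs1, at probe set 1433445_x_at, a kind of probe set that can pick up related transcripts, read 1402, 2058 and 2273 in wild-type replicates 1, 2 and 3 and 2381, 2189 and 1922 in Msi1-null replicates 1, 2 and 3. Only wild-type replicate 1 was low, and the other 2 wild-type values lay inside the Msi1-null range. The log2 difference was 0.20 ± 0.19 (SE; 95% interval -0.24 to 0.65; limma unadjusted p = 0.318), and -0.005 without that array. Its other 4 probe sets, 1 of them below background, gave 0.11 to 0.21, and wild-type replicate 1 was the lowest array at each of them.

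Idi1, which isomerises isopentenyl diphosphate (1451122_at), read 392, 661 and 795.5 in wild-type and 681, 835 and 742 in Msi1-null arrays. Fdps, farnesyl diphosphate synthase (1423418_at), read 578, 699 and 1020 in wild-type and 809, 985 and 1049 in Msi1-null arrays. For both genes wild-type replicate 1 was the lowest and wild-type replicate 3 lay among the Msi1-null values. Their log2 differences were 0.34 ± 0.25 and 0.34 ± 0.22 (SE), and without wild-type replicate 1 they were 0.05 and 0.16. A second probe set of Idi1 gave 0.28, whereas the second of Fdps lay below background on every array and gave -0.07.

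The kinases and the decarboxylase between Hmgcs1 and Idi1 varied less. Mvk, mevalonate kinase, ranged from 243 to 321 over the 6 arrays, Pmvk, phosphomevalonate kinase, from 321 to 403 and Mvd, the diphosphate decarboxylase, from 277 to 396. Their log2 differences were -0.02 ± 0.12, -0.08 ± 0.11 and -0.02 ± 0.15 (SE). Wild-type replicate 1 was again the lowest array for Mvk and Mvd, but not for Pmvk, whose lowest value was in Msi1-null replicate 2.

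Among the enzymes that make and close squalene, Fdft1 and Sqle were lowest in wild-type replicate 1 and Lss was nearly flat. Fdft1, squalene synthase, read 1038, 1354 and 1549 in wild-type and 1054, 1560 and 1315 in Msi1-null arrays, and the groups differed by -0.003 ± 0.20 (SE) on the log2 scale. Sqle, the epoxidase that oxidises squalene, read 637, 895 and 1142 in wild-type and 877.5, 1059 and 1017 in Msi1-null arrays. The Sqle difference was 0.18 ± 0.21 (SE), and -0.04 without wild-type replicate 1. Lss, which closes the ring to lanosterol, ranged only from 522 to 584 and differed by -0.02 ± 0.10 (SE; 95% interval -0.24 to 0.20). The 2 dimmer Lss probe sets pointed opposite ways, at 0.20 and -0.12.

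Cyp51, the lanosterol demethylase, had the largest difference of any member, and it came from 1 array. It read 625, 865 and 1117 in wild-type and 859, 1155 and 2771 in Msi1-null arrays. Msi1-null replicate 3 was thus 2.4 times the next highest array at the brightest probe set, 1450646_at, and the remaining 5 values were interleaved. The same array was the highest at the other 2 Cyp51 probe sets, 1.75 and 1.18 times the next, but the probe set with 1.18 lay below background on every array. The log2 difference was 0.73 ± 0.42 (SE; 95% interval -0.26 to 1.72; limma unadjusted p = 0.126), and 0.24 without Msi1-null replicate 3. At the brightest probe sets no other sterol gene had a highest to lowest ratio above 2.13, against 4.43 for Cyp51. At the other 2 Cyp51 probe sets this ratio was 2.86 and 1.39.

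The late sterol enzymes gave small differences of both signs. Ebp, which shifts the ring double bond (1416667_at), read 1268, 1335 and 1236 in wild-type and 1372, 1776 and 1485 in Msi1-null arrays. It was the only sterol gene without overlap between the groups, with a log2 difference of 0.26 ± 0.12 (SE; 95% interval -0.03 to 0.55; limma unadjusted p = 0.07) and a range of 0.16 to 0.34 when each array was left out. Nsdhl, a C4 demethylation enzyme, read 438, 478 and 550.5 in wild-type and 538, 548 and 556 in Msi1-null arrays, a difference of 0.17 ± 0.11 (SE). Ebp and Nsdhl are the members on the X chromosome, and without wild-type replicate 3, the array with high Xist, they differed by 0.24 and 0.26.

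Hsd17b7, a ketosteroid reductase of the same C4 step, had the most negative difference of the sterol arm. Its values were 284, 344 and 469 in wild-type and 294, 305 and 330 in Msi1-null arrays. Wild-type replicate 3 was the highest, and without it the log2 difference of -0.21 ± 0.18 (SE) was -0.02. Of its other probe sets, 1417871_at read 214.5, 219.8 and 270.3 in wild-type and 207.8, 195.3 and 204.7 in Msi1-null arrays, without overlap and with a difference of -0.20 ± 0.10 (SE), 1448865_at gave -0.06, and 1440057_at, below background on every array, gave 0.04. Tm7sf2, a C14 sterol reductase, differed by 0.15 ± 0.19, Sc5d, a sterol desaturase, by 0.09 ± 0.15, and Dhcr7, the reductase of the last step, by -0.10 ± 0.10 (SE). The dimmer Sc5d probe sets, 1434520_at and 1424709_at, gave -0.39 ± 0.26 and -0.04 ± 0.07 (SE), so the direction for Sc5d depended on the probe set.

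The sterol arm's regulators differed little between genotypes. Insig1, which retains SREBPs when sterols are high and is itself an SREBP target, read 642, 1019 and 942 in wild-type and 754.5, 996 and 852 in Msi1-null arrays. Its group means were both 868, the log2 difference was 0.02 ± 0.20 (SE; 95% interval -0.44 to 0.48), and wild-type replicate 1 was again the lowest. Srebf2, which encodes SREBP-2, read 698, 800 and 969 in wild-type and 742, 985 and 1024 in Msi1-null arrays. That is a difference of 0.16 ± 0.17 (SE), with wild-type replicate 1 the lowest array and the groups overlapping.

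**Figure D3:**
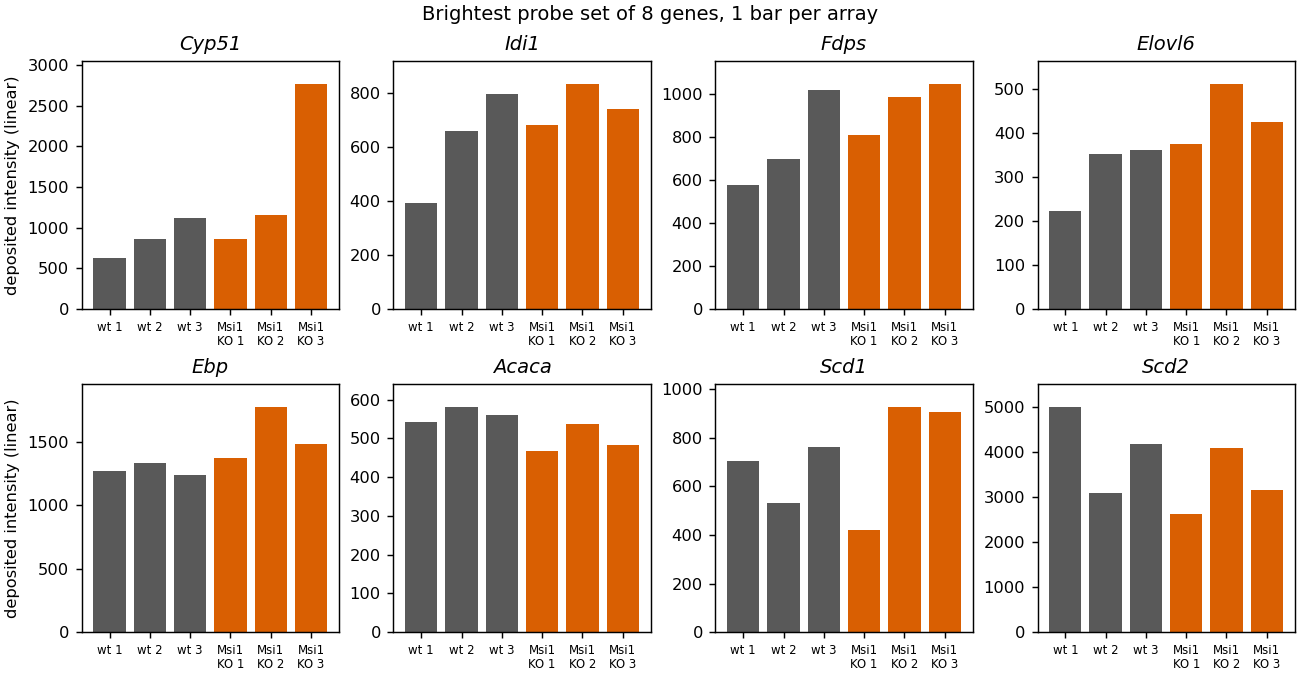
Deposited linear intensity (y axis, from 0) of the brightest probe set of 8 genes, with 1 bar per array, wild-type in grey and Msi1-null in orange. Msi1-null replicate 3 stands out for Cyp51 at 2771, wild-type replicate 1 is the lowest for Idi1, Fdps and Elovl6, and Scd1 and Scd2 order the arrays differently.

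In the fatty acid arm the largest difference was that of Elovl6, the elongase that lengthens palmitate. At 1417404_at it read 224, 351.5 and 361 in wild-type and 376, 512 and 426 in Msi1-null arrays. The groups did not overlap, but wild-type replicate 3 at 361 and Msi1-null replicate 1 at 376 were close. The log2 difference was 0.51 ± 0.20 (SE; 95% interval 0.03 to 0.99; limma unadjusted p = 0.0397, adjusted p = 0.9997), and 0.29 without wild-type replicate 1. A second probe set gave 0.29 ± 0.19 (SE), and the dimmest, above background on 2 of 6 arrays, gave 0.02.

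The enzymes that supply and build palmitate differed little. Acly, which makes cytosolic acetyl-CoA from citrate, ranged from 3007 to 3612 and differed by -0.02 ± 0.10 (SE; 95% interval -0.26 to 0.21). Acaca, acetyl-CoA carboxylase 1 (1434185_at), read 542, 582 and 561 in wild-type and 467, 537 and 484 in Msi1-null arrays. Its groups did not overlap, with 537 just under 542, and its difference was -0.18 ± 0.10 (SE; limma unadjusted p = 0.111). Fasn, fatty acid synthase, read 1101.5, 1315 and 1368 in wild-type and 956, 1416 and 1294 in Msi1-null arrays, a difference of -0.06 ± 0.17 (SE) with full overlap. Acss2, which makes acetyl-CoA from acetate, read 332, 271 and 285 in wild-type and 257, 514 and 289 in Msi1-null arrays, so only Msi1-null replicate 2 was high. Me1, malic enzyme, a source of NADPH, differed by 0.01 ± 0.17 (SE) at its brightest probe set. Its other probe set, 1430307_a_at, above background on all 6 arrays, gave 0.26 ± 0.18 (SE), and Msi1-null replicate 2 was the highest array at both.

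The stearoyl-CoA desaturases Scd1 and Scd2, which add the first double bond, had log2 differences of opposite sign. Scd1 read 704, 532 and 763 in wild-type and 422, 928 and 907 in Msi1-null arrays, a difference of 0.10 ± 0.31 (SE; 95% interval -0.62 to 0.83). Scd2 read 5002, 3084 and 4183 in wild-type and 2621, 4083 and 3158 in Msi1-null arrays, a difference of -0.31 ± 0.22 (SE; 95% interval -0.82 to 0.19). Both were lowest in Msi1-null replicate 1, but Scd2 was highest in wild-type replicate 1 and Scd1 in Msi1-null replicate 2. Neither interval excluded 0, and the difference between the paralogs was not tested.

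The polyunsaturated fatty acid enzymes differed by less than their spread. Fads1 and Fads2, the delta-5 and delta-6 desaturases, differed by 0.13 ± 0.14 and 0.11 ± 0.15, and Elovl5, their partner elongase, by -0.005 ± 0.12 (SE). Srebf1, which encodes SREBP-1, read 1683, 1129 and 1280 in wild-type and 965, 1588 and 1193 in Msi1-null arrays. It was highest in wild-type replicate 1, the array where Srebf2 was lowest, and differed by -0.14 ± 0.22 (SE), or 0.02 without that array.

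The remaining members of the fatty acid arm showed no call either. Gpam, which starts glycerolipid synthesis, differed by -0.14 ± 0.11 and Acsl3, an acyl-CoA synthetase of lipid droplets, by -0.06 ± 0.23 (SE). Acacb, the mitochondrial acetyl-CoA carboxylase, read between 126.5 and 149 and Thrsp, a lipogenic regulator of liver and fat, between 128.5 and 148. Both lay below background on all 6 arrays, the only members to do so, and their differences of 0.07 ± 0.07 and -0.02 ± 0.07 (SE) are on a compressed scale.

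The fatty acid arm ordered the arrays in another way than the sterol arm. Msi1-null replicate 1 held the lowest value for 10 of 16 fatty acid genes, against 25.7% of named genes, and for 1 of 18 sterol genes. Msi1-null replicate 2 held the highest for 7 of 16, against 19.9%, and for 4 of 18 sterol genes. The mean level of the arm was -0.006, -0.07 and 0.06 in wild-type and -0.18, 0.22 and -0.02 in Msi1-null replicates 1, 2 and 3. The wild-type arrays therefore lay inside the Msi1-null range.

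**Figure D4:**
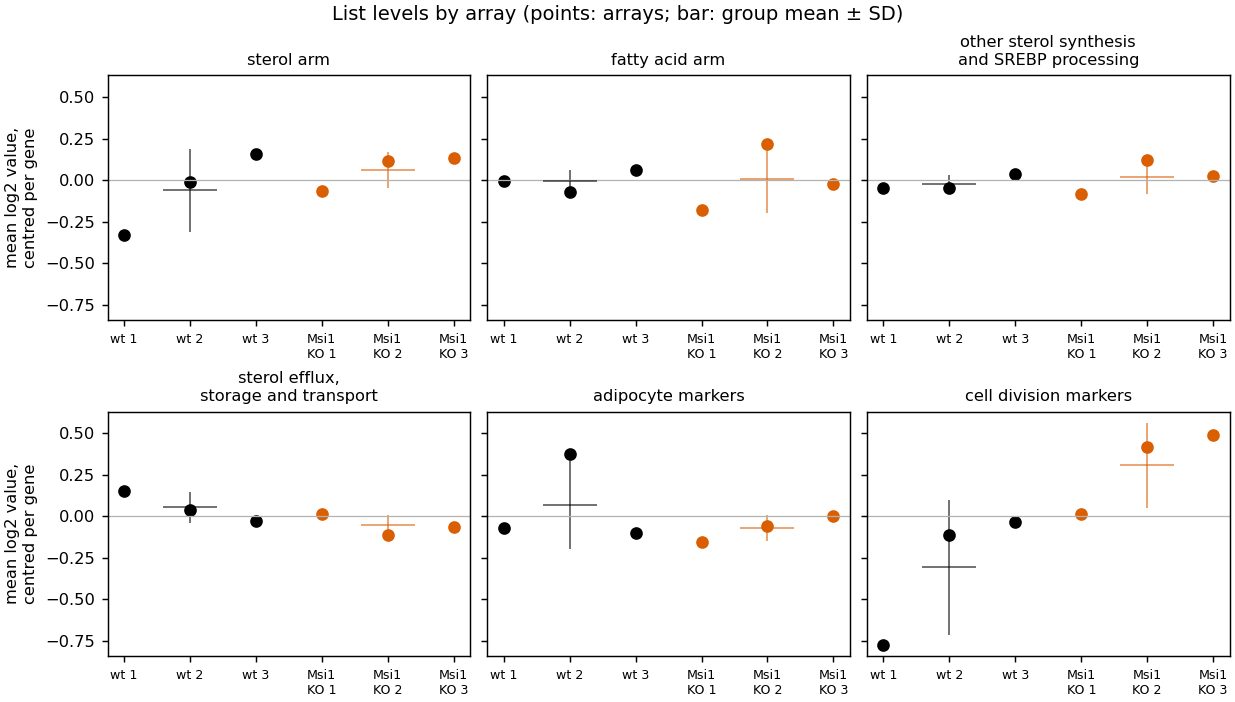
Mean log2 level of 6 gene lists (y axis, each gene centred on its mean over 6 arrays) on each array (x axis); points are arrays, and bars are group means ± SD (n = 3). Wild-type replicate 1 is lowest for the sterol arm (-0.33) and for cell division markers (-0.77) and highest for sterol efflux genes (0.15), and wild-type replicate 2 is highest for adipocyte markers (0.38).

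Other lists moved over the same arrays, and their part in the order of the members was not tested. Wild-type replicate 1 also had the lowest mean level of 13 cell division markers, at -0.77 against -0.12 to 0.49 on the other arrays, and of 9 T, NK and B cell markers, at -0.52, and of 8 endothelial markers, at -0.31. Only 1 of the 9 T, NK and B cell markers was above background on every array, against 8 of 8 endothelial markers. Summed over the 13 cell division genes, intensity ran from 5925 to 9155 in wild-type and from 9290 to 12639 in Msi1-null arrays, with 12 of 13 above background on every array. Msi1-null replicate 1 had the lowest mean level of 12 tumour epithelium markers, at -0.25, and of acinar markers, at -1.23, and the highest of macrophage markers, at 0.48, and of fibroblast markers, at 0.37. RNA integrity, read as the 3′ over 5′ signal of Gapdh, gave 1.38 in that array against 1.55 to 1.86 elsewhere. Of the marker lists, acinar and cell division genes had the largest median differences between the genotypes. The acinar list stood at 0.37, 0.90 and 0.41 in wild-type and -1.23, -0.72 and 0.27 in Msi1-null replicates 1, 2 and 3, with 10 of 11 genes lower, a median log2 difference of -1.35 and 7 genes at an unadjusted p under 0.05. Of 13 cell division genes 13 had higher means, with a median of 0.64 and 8 at an unadjusted p under 0.05, and 0 genes of either list passed the adjusted threshold (limma). Over all named genes 3.45% had an unadjusted p under 0.05 (limma). The groups did not overlap for 2 of 11 acinar and 8 of 13 cell division genes, against 8.28% of named genes. Macrophage markers stood at -0.56 in Msi1-null replicate 2. Mean levels of the 7 islet markers were 0.265, -0.269 and 0.022 for wild-type replicates 1, 2 and 3. For the Msi1-null replicates they were -0.622, 0.658 and -0.054. This ranked the arrays as the fatty acid arm did, except that wild-type replicates 1 and 3 changed places. The likeness was read after the values were seen. Of the 7 islet markers 4 were above background on every array and 2 were below it on every array. Gcg varied most, from 143 to 2096, and Ins2 was lowest in wild-type replicate 1. Whether islet cells had a part in the order of the fatty acid arm was not tested.

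Fat and liver cells also express many members strongly. Adipocyte markers were highest in wild-type replicate 2, at 0.38 against -0.15 to 0.004 on the other arrays. The fatty acid arm stood at -0.07 in that array. Of the 13 adipocyte markers 8 were highest in wild-type replicate 2 and 3, Cidea, Gpd1 and Pparg, in Msi1-null replicate 2. The part of fat cells in the levels of the members was not tested. Summed intensity over the 13 adipocyte markers ran from 4779 to 8240 in wild-type and from 5018 to 5523 in Msi1-null arrays, and 8 of 13 were above background on all arrays. Of the defining markers, Lep was below background on every array and Adipoq was above it on 2 arrays. Among 7 hepatocyte markers 2, Apoa1 and Ttr, were above background on all arrays, and Alb, at most 151, was below it on all. Apoa1 read 1573 in wild-type replicate 2, 1036 in Msi1-null replicate 3 and 189 to 229 on the other arrays. Ttr ran from 333 in Msi1-null replicate 1 to 1547 in wild-type replicate 1. The part of liver cells in the levels of the members was not tested.

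Further genes of the pathway were read from 4 lists, none of whose members passed the adjusted threshold. Among 12 other genes of sterol synthesis and SREBP processing, 8 had higher means in Msi1-null arrays and the median log2 difference was 0.05. Its 3 brightest members were Nus1, a subunit of dolichol synthesis (-0.15 ± 0.11), the SREBP protease Mbtps1 (0.01 ± 0.12) and the SREBP escort Scap (-0.18 ± 0.10, SE). Scap did not overlap between the groups, with 1604, 1441.5 and 1411 in wild-type and 1337, 1324 and 1256 in Msi1-null arrays. Msmo1, the C4 methyl oxidase, read 633, 868 and 1090 in wild-type and 867, 1124 and 1275 in Msi1-null arrays, with wild-type replicate 1 the lowest. The list as a whole did not repeat this: wild-type replicate 1 was the lowest array for 4 of 12 genes and the highest for 5. Its mean level was -0.049 in that array, against -0.085 to 0.12 on the other arrays.

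Lipogenesis and fatty acid oxidation gave medians close to 0. Of 19 further genes of lipogenesis and triglyceride synthesis 6 had higher means, with a median of -0.04; Idh1, a source of NADPH, differed by -0.04 ± 0.15, the elongation reductase Hsd17b12 by -0.08 ± 0.12 and the acyl-CoA synthetase Acsl5 by 0.42 ± 0.19 (SE). Of 15 genes of fatty acid oxidation 11 had higher means, with a median of 0.07, and the dehydrogenases Hadh and Acadl and the thiolase subunit Hadhb differed by 0.17 ± 0.13, 0.04 ± 0.11 and 0.08 ± 0.11 (SE).

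Genes of sterol efflux, storage and transport had a negative median difference. Of 13 measured, 9 had lower means in Msi1-null arrays, with a median log2 difference of -0.13, which became -0.02 when Msi1-null replicate 2 was left out and -0.10 when wild-type replicate 1, the array where the list stood highest, was. Its difference from the sterol arm was not tested. Apoe, the apolipoprotein of macrophages and astrocytes, differed by -0.14 ± 0.12 and Npc2, a lysosomal cholesterol carrier, by -0.10 ± 0.07 (SE). Abca1, the exporter of cholesterol to lipoproteins and an LXR target, read 3639, 2497 and 2359 in wild-type and 1801, 2046.5 and 2036 in Msi1-null arrays. Its groups did not overlap, and it differed by -0.50 ± 0.17 (SE; limma unadjusted p = 0.0209, adjusted p = 0.9997). Wild-type replicate 1 was the highest array for Abca1, and without it the difference was -0.31.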

How the data were processed

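The authors deposited 1 table of probe set intensities on a linear scale from 6 Affymetrix mouse arrays, made from 6 ug of total RNA per the labels' protocols. Per the submitters' processing notes the intensity values come from GCRMA, with version, settings and any later rescaling not given in the sources used here. Of 45101 probe sets, 64 controls were left out. Probe sets were named from the platform annotation, with symbols updated through Entrez identifiers; 34945 had 1 symbol, 932 several and 9160 none, and those with several were not named. Values were analysed as log2(intensity + 1). The lowest intensity of each array lay between 51.2 and 59.92, and such a floor can understate differences of dim genes. Groups came from the sample titles. A linear model with genotype as its only term was fitted to all probe sets with limma 3.58.1 in R 4.3.3 (eBayes, trend), adjusted by Benjamini-Hochberg at 0.05, and checked on simulated data. SE is limma's moderated standard error. Each array was left out in turn, and other alternatives changed the pseudocount, filter, normalization, weights, prior variance, block or probe set. Members and lists were chosen with earlier results of these data known. All members are named; of each further pathway list the 3 brightest are named, and Msmo1, Abcg1, Mylip, Stard4, Erg28, Lbr and Ggps1 were picked after their values were seen. No precision beyond the number of arrays, 3 a group, can be given. Replicate numbers are those of the sample titles. Part of the shared tumour genotype is not reported here.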

Additional observations from a re-analysis of the deposited data

How the results depend on the processing

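With 3 arrays a group, single arrays set most directions; the cause was not tested. No member passed the adjusted threshold under any alternative run. The whole array gave 0 calls, except 1 without Msi1-null replicate 1 (adjusted p = 0.04264), so counts ran from 0 to 1 when each array was left out. Probe sets with an unadjusted p under 0.05 numbered 2723 without Msi1-null replicate 1, 886 without wild-type replicate 1, 2153 under array weights, and 546 of the 15775 whose mean log2 reached 8. Members without overlap numbered 3 to 9 when an array was left out: 8 without wild-type replicate 1, 4 without replicate 2, 7 without replicate 3, and 9, 3 and 5 without Msi1-null replicates 1, 2 and 3, against 14.9% to 25.2% of named genes. Genes without overlap over all 6 arrays stay so when an array is removed, so this count could not fall below 3. The sterol median ran from -0.02 to 0.20 and the fatty acid median from -0.10 to 0.05; with array weights, the lowest of which went to Msi1-null replicate 1 (0.34) and wild-type replicate 1 (0.61), they were 0.01 and 0.03 and their gap -0.02. Averaging each gene's probe sets gave 0.07 and -0.001.

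Log2 differences of members changed sign as follows. With quantile normalization Fdft1 was 0.0057. With array weights Sc5d was -0.0155, Insig1 -0.0433, Srebf1 0.0416 and Acsl3 0.0525. With a gene's probe sets averaged Mvk was 0.0184, Fdft1 0.0038, Lss 0.0209, Sc5d -0.1134 and Elovl5 0.0105. With the second brightest probe set Mvk was 0.0551, Mvd 0.0205, Fdps -0.0725, Fdft1 0.0324, Lss 0.2025, Sc5d -0.3894, Acacb -0.0495, Elovl5 0.0257, Fads1 -0.0005 and Thrsp 0.0095. Leaving out each array gave ranges across 0 for 18 members: Hmgcs1 -0.0046 to 0.3439, Mvk -0.1419 to 0.0559, Mvd -0.1905 to 0.0679, Fdft1 -0.1633 to 0.1442, Sqle -0.0426 to 0.3781, Lss -0.0527 to 0.0273, Sc5d -0.0617 to 0.1719, Insig1 -0.1844 to 0.1482, Acly -0.0757 to 0.0566, Fasn -0.1755 to 0.1076, Scd1 -0.0908 to 0.4775, Elovl5 -0.1064 to 0.0695, Fads2 -0.0478 to 0.2242, Me1 -0.1558 to 0.1886, Srebf1 -0.3252 to 0.0338, Thrsp -0.0689 to 0.0311, Acsl3 -0.2051 to 0.1537 and Acss2 -0.1135 to 0.3853. Pseudocount, filters, median centring and prior variance changed no member's sign.

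Same-numbered arrays deviated together with r = 0.17, -0.091 and 0.282 over probe sets, and differently numbered ones with r from -0.257 to 0.058. The values 0.17 and 0.282 lay above that range and -0.091 inside it. The main fit did not pair arrays by number, and whether the numbers pair them is not settled here. With the replicate block 0 probe sets were called and the arm medians were 0.1221 and -0.0117. An unadjusted p under 0.05 (limma) was reached by 2120 probe sets with the block, against 1355 without it.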

Other observations

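Some genes of sterol transport were highest in the array where most sterol genes were lowest. Wild-type replicate 1, the lowest array for 13 of 18 sterol genes, was the highest for Abca1, for the exporter Abcg1 (2224 against 935 to 1493 on the other arrays), for Mylip, which degrades lipoprotein receptors (1652 against 700.0 to 910), and for Srebf1, Scd2 and Gpam among the members. These genes were picked after their values were seen. Wild-type replicate 1 held the highest value for 3 of all 34 members and for 4 of 13 genes of the efflux list, against 4111 of 18193 named genes. Abcg1 differed by -0.54 ± 0.23 and Mylip by -0.44 ± 0.27 (SE) between the genotypes, and by -0.30 and -0.11 without wild-type replicate 1, a setting chosen after seeing the data, and both had an adjusted p of 0.9997 over all arrays (limma). Stard4, a sterol carrier under SREBP-2, and Erg28, a scaffold of the sterol enzymes, were lowest in that array, at 501 and 598.5, as was the lamin B receptor and sterol reductase Lbr, at 1139. Of the 12 further genes of sterol synthesis and SREBP processing 4 were lowest there, these and Msmo1, and 5 were highest there.

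Ggps1, which makes geranylgeranyl diphosphate for prenylation, did not overlap between the groups and varied little within them. It read 290.9, 295.7 and 282.3 in wild-type and 248.3, 251.3 and 254.3 in Msi1-null arrays, and differed by -0.20 ± 0.07 on the log2 scale (SE; limma unadjusted p = 0.0228, adjusted p = 0.9997). It was picked after its values were seen.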
